A study of Mus musculus with 12 samples.

Results

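The gamma crystallins measured here were the 8 genes Cryga, Crygb, Crygc, Crygd, Cryge, Crygf, Crygn and Crygs, chosen by gene symbol from the 45859 genes of each deposited table. Their RNA was measured in lens cells (LCs) that stay on the lens capsule when the fiber cells are taken out of a living mouse eye, a model of cataract surgery. WT LCs came from C57BL/6 mice, and β8ITGcKO LCs came from mice of a mixed C57BL/6 and 129S1/Sv background in which the MLR10-Cre transgene, active in lens cells from the lens vesicle stage on, removes exon 4 of a floxed Itgb8 allele. LCs were collected either immediately (0 h PCS, post cataract surgery) or 24 h PCS from mice aged 2 months, with 3 libraries per condition, 12 in all, and 5 capsules pooled in each. The genotype and the mixed background cannot be told apart in these groups, and no antibody or other agent was given to these mice.

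Gamma crystallins are small, monomeric structural proteins of the beta-gamma crystallin superfamily, built from Greek key folds, that pack densely in lens fiber cells and give the lens its refractive power and transparency. Cryga to Crygf arose by gene duplication and lie on mouse chromosome 1, Cryga to Cryge close together and Crygf apart from them. Crygs encodes the gamma S crystallin that is made in the lens well into adult life. Crygn encodes a member whose sequence and gene structure stand between the beta and gamma families. LCs that remain after surgery are mainly epithelial, and fiber cells are the main site of gamma crystallin accumulation, so fewer fiber cells and less gamma crystallin RNA per cell cannot be told apart in these bulk samples.

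The promoters are shown because the chromosome 1 members fell together, and Crygb, Crygc and Crygd by far larger factors than Crygn and Crygs. Each line is the 100 bases before the start used in the RefSeq promoters of GRCm38.p6, which held all 8 members, 5′ to 3′ on the strand of the gene. For Cryge that start is the end of the locus in the deposited files, and the RefSeq gene extends beyond it to position 65051816, so its window lies within the annotated gene. Capitals mark TTTGTG or TTTTGTG, and the TATA-like words TATATA and TATAAA.
Crygb: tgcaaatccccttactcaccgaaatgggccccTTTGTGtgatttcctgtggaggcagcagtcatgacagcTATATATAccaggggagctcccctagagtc
Crygc: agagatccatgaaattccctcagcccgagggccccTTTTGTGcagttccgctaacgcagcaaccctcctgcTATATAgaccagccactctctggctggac
Crygd: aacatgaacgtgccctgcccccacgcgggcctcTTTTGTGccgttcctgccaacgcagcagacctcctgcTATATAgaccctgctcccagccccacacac
Cryga: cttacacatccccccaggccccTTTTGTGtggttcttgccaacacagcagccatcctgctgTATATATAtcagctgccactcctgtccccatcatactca
Cryge: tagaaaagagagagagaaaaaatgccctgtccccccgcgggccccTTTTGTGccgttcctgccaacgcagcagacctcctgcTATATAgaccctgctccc
Crygf: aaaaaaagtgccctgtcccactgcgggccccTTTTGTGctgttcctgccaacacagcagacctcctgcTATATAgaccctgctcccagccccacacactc
Crygn: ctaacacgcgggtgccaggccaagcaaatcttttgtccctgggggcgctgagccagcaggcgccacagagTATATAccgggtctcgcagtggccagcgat
Crygs: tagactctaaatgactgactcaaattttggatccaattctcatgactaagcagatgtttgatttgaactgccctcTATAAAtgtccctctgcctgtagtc
These windows lie at chr1:65082291-65082390 for Crygb, chr1:65073533-65073632 for Crygc, chr1:65063441-65063540 for Crygd, chr1:65103364-65103463 for Cryga, chr1:65051164-65051263 for Cryge, chr1:65926422-65926521 for Crygf, chr5:24757849-24757948 for Crygn and chr16:22811411-22811510 for Crygs. Crygf is on the plus strand and the others are on the minus strand.

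TTTGTG, a word of 6 bases, was the longest run that the promoters of all 6 chromosome 1 members shared exactly, counted over 250 bases before and 50 after the start. It was also in 9.39% of all 32851 promoters of that length, so it is not rare. A longer run, CCTCCTGCTATATAGACC, was shared by Crygc, Crygd, Cryge and Crygf and was in 4 promoters of the whole table, which are those 4 genes. The word TATATA, added after the sequences were read, stood on the gene's strand in 7 of the 8 members and in 5.67% of all promoters. Crygs was the member without it, and instead held TATAAA 25 bases before its start, a word that 8.32% of all promoters held.

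Words that match the binding motifs of lens regulators were less regular among the members. TGCTGA, the core of sites that Maf proteins bind, was found on either strand in Cryga, Crygc, Crygn and Crygs, against 19.5% of all promoters. ACAAAG was found in Cryga and Crygb and AACAAT in Crygd and Crygs, both being words that Sox proteins bind, against 18.7% and 10.7% of all promoters. GAANNTTC, the core of heat shock factor elements, was in no member and in 7.86% of all promoters. These are matches of letters in a window of 300 bases and not measured binding.

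The members also differ in how well reads can be assigned to them. Over their main transcripts, pairs of chromosome 1 members were 63.8% to 95.1% identical, with Cryge and Crygf the most alike, whereas pairs with Crygn or Crygs were 48.2% to 57.7% identical. Of the windows of 100 bases along each transcript, 22.8% in Crygb and 17.8% in Crygc occurred exactly in the other of that pair, 15.8% in Crygd and 11.9% in Crygf occurred in Cryge, and 27.1% in Cryge occurred in Crygd or Crygf. For Cryga, 47.7% of windows occurred in Gm28845, a predicted transcript that the GENCODE annotation names separately, and for Crygn and Crygs none occurred in another gene. The split of reads among Crygb and Crygc and among Crygd, Cryge and Crygf is therefore uncertain. Whether Gm28845 was counted apart from Cryga in the deposited values is not known, and no other gene shared the locus recorded for Cryga. The locus recorded for Crygn and for Crygs also covers a predicted gene, Gm33591 and Gm30416 respectively.

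Expression is given as FPKM, read pairs scaled by transcript length and by the size of the library, as deposited for each library, which allows levels of different genes to be compared per length. Summed FPKM ran from 446531 to 740140 per library, 36.0% to 49.6% of it in the 10 highest genes. With no read counts among the values used, the absolute depth is unknown, while the size of the steps among low FPKM values put the libraries at 0.878 to 1.10 of their typical depth. Itgb8 was at 7.26 to 10.8 FPKM in WT and 4.58 to 7.31 FPKM in β8ITGcKO at 0 h PCS and at 8.38 to 9.58 and 9.28 to 11.8 FPKM at 24 h PCS, a value over the whole gene that does not isolate the removed exon and so does not check the labels. All 5 lens epithelium markers (Foxe3, Pax6, Cdh1, Gja1 and Itga6) were detected. The 10 photoreceptor markers summed to 147 to 1225 FPKM in WT 0 h, 76.2 to 141 in WT 24 h, 184 to 348 in β8ITGcKO 0 h and 874 to 1034 in β8ITGcKO 24 h. Other markers moved with the time as well. Corneal stroma markers summed to 32.2 to 35.8 FPKM in WT 0 h and 5.6 to 11.98 in WT 24 h, and to 32.6 to 39.4 and 8.89 to 15.1 FPKM in β8ITGcKO. Most of that sum was Ogn, with means of 31.6 and 8.2 FPKM in WT and 35.8 and 10.6 FPKM in β8ITGcKO. Kera and Lum had means of at most 0.183 FPKM in any group. Corneal epithelium markers summed to 212 to 271 and 156 to 447 FPKM in WT and to 539 to 920 and 140 to 192 FPKM in β8ITGcKO. Most of that sum was Aldh3a1, with means of 240 and 274 FPKM in WT and 734 and 157 FPKM in β8ITGcKO. In β8ITGcKO the means of Krt12, Krt5 and Krt14 were at most 0.533 FPKM at either time, and Krt15 was at 5.85 and 2.37 FPKM. Lens epithelium markers summed to 390 to 396 and 365 to 386 FPKM in WT and to 473 to 532 and 279 to 314 FPKM in β8ITGcKO. Pigment cell markers summed to 11.5 to 83.8 FPKM over the 12 libraries, and leukocyte markers summed to 6.03 to 10.3 FPKM at 0 h and 37.0 to 98.5 FPKM at 24 h. The part of these cell types in the changes of the members was not tested.

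The members had very different levels within a library at 0 h PCS. Crygs was the highest in WT, at 3381 ± 570 FPKM (SD, n = 3), and next came Crygc at 404 ± 46.8, Crygb at 324 ± 18.1, Crygd at 181 ± 64.0 and Crygn at 115 ± 18.4 FPKM. Crygf at 16.4 ± 5.27, Cryge at 16.3 ± 5.86 and Cryga at 5.11 ± 2.22 FPKM were the lowest. Of the neighbours in this order, Crygc and Crygb did not overlap, though by a narrow gap (352 to 444 against 310 to 345 FPKM), Crygd and Crygn overlapped (109 to 232 against 99.6 to 135 FPKM), and Cryge and Crygf could not be separated.

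In β8ITGcKO at 0 h PCS, Crygs was again the highest at 4112 ± 240 FPKM, followed by Crygc at 343 ± 76.2 FPKM, which overlapped with Crygb. Crygb at 209 ± 89.5, Crygn at 199 ± 77.8 and Crygd at 117 ± 58.6 FPKM had overlapping values, as did Cryge at 21.9 ± 10.2 and Crygf at 10.2 ± 2.59 FPKM, with Cryga last at 3.89 ± 0.476 FPKM. The plot of levels by library shows this order and how far each member lay from it a day later.

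**Figure D1:**
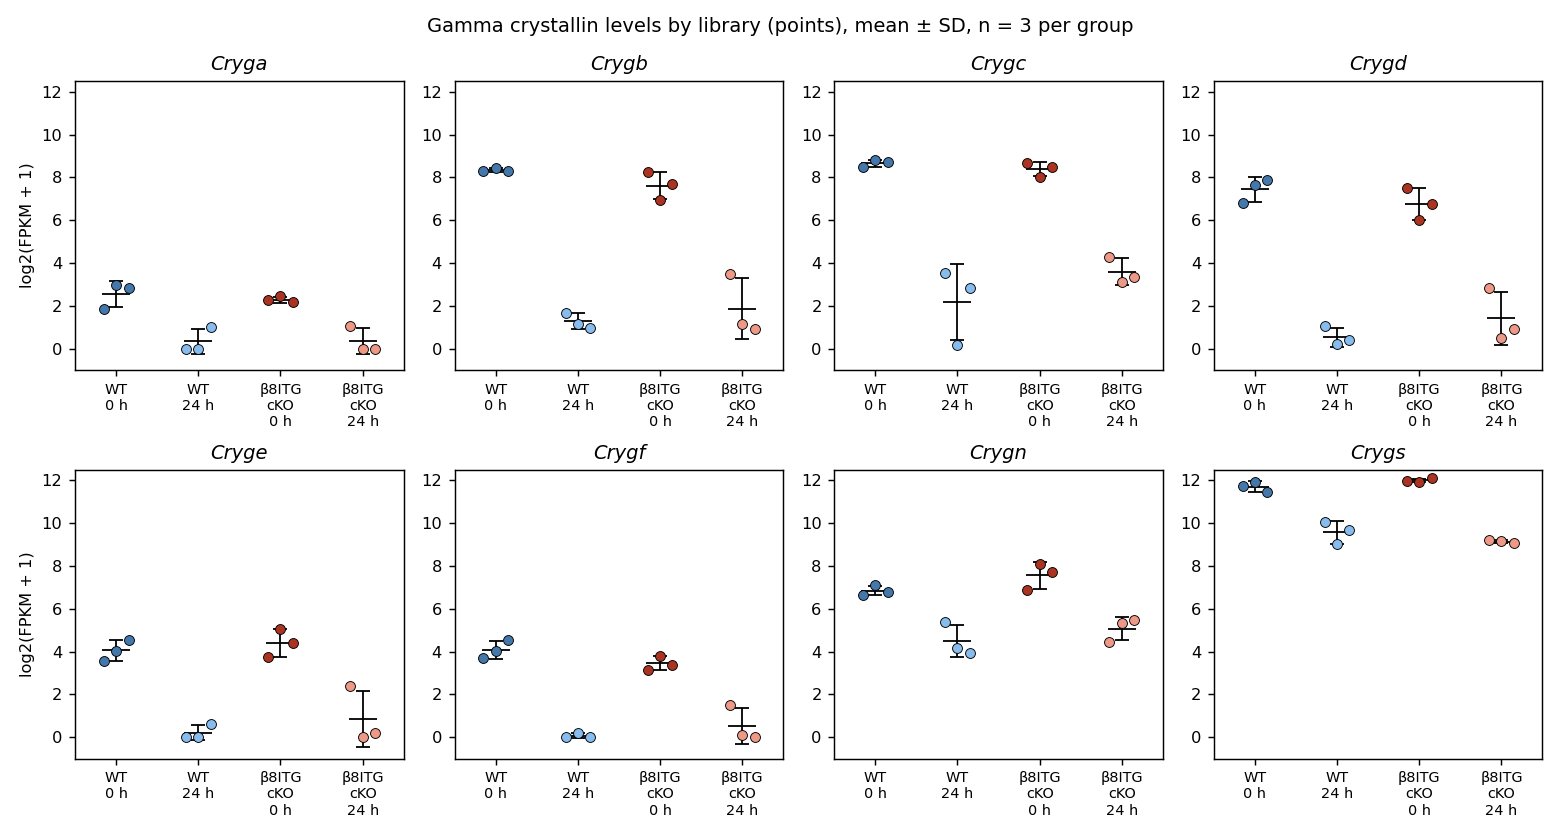
Levels of the 8 gamma crystallin genes, 1 panel each, as log2(FPKM + 1) on the vertical axis, with a point per library and the mean ± SD of 3 libraries for WT and β8ITGcKO at 0 h and 24 h PCS. Every 24 h library sits below every 0 h library of its genotype in all panels, and Crygs stays the highest member throughout.

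The first question was how the members changed in WT LCs in the first day after surgery. Crygc, Crygb and Crygd, the chromosome 1 members with the highest RNA levels, fell to at most 10.4 FPKM. Crygb was at 318, 345 and 310 FPKM at 0 h PCS and then at 2.21, 1.24 and 0.946 FPKM at 24 h PCS. Its mean was 221 times lower at 24 h, and its log2 difference was -7.07 ± 0.20 (SE; limma on log2(FPKM + 1), Benjamini-Hochberg adjusted p = 9.52e-06). The 0 h libraries lay within a narrow range and all 24 h libraries were at 2.21 FPKM or less.

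Crygd, whose human counterpart is mutated in several inherited cataracts, was at 109, 202 and 232 FPKM at 0 h PCS and then at 1.04, 0.141 and 0.301 FPKM at 24 h PCS in WT. It fell by 6.91 on the log2 scale (SE 0.32, limma adjusted p = 6.24e-05). Crygc was at 352, 444 and 416 FPKM and then at 10.4, 0.108 and 6.17 FPKM. The groups of both genes were far apart, but Crygc was uneven at 24 h, since replicate 2 was almost without it while the other libraries kept 6 to 10 FPKM. Crygc fell by 6.49 (SE 0.75, limma adjusted p = 0.0012), the widest error of the members, and its mean was 72.8 times lower at 24 h.

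Cryga, Cryge and Crygf, the members of low level, reached or neared 0 in WT 24 h. Cryge was at 11.0, 15.4 and 22.6 FPKM and then at 0, 0 and 0.519 FPKM. Crygf was at 11.9, 15.1 and 22.2 FPKM and then at 0, 0.145 and 0 FPKM. Cryga was at 2.57, 6.73 and 6.02 FPKM and then at 0, 0 and 1.02 FPKM. For these genes the differences of -3.86 ± 0.28 for Cryge, -4.01 ± 0.23 for Crygf and -2.19 ± 0.38 for Cryga (log2, SE; limma adjusted p = 0.000209, 8.12e-05 and 0.00536) depend on the pseudocount of 1, which shrinks changes of low genes. A 0 in the deposited values may also be a failed estimate, but here the libraries beside each 0 were at 1.02 FPKM or less.

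Crygn and Crygs, which lie outside chromosome 1, fell by far smaller factors in WT. Crygs was at 3456, 3910 and 2777 FPKM at 0 h PCS and then at 1054, 513 and 809 FPKM at 24 h PCS. Its log2 difference was -2.14 ± 0.32 (SE, limma adjusted p = 0.00327), a mean 4.27 times lower, and it was still among the abundant transcripts of the LCs. Crygn was at 99.6, 135 and 111 FPKM and then at 40.2, 17.0 and 14.6 FPKM. Its groups did not overlap, with WT 24 h replicate 1 standing above the other libraries of that group, and it fell by 2.35 (SE 0.35, limma adjusted p = 0.00305).

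In WT, then, 8 of the 8 members were called lower at 24 h PCS, where a call needed an adjusted p of at most 0.05, a change of more than 2-fold, a difference of more than 2 FPKM and at least 2 FPKM in a group. Of the 15146 genes tested, 14.3% were called and 3.92% were called lower, and in 15.6% every 24 h library lay below every 0 h library, as it did for 8 of 8 members. Cryga, Crygd, Cryge and Crygf had means under the filter of 0.5 FPKM at 24 h and entered the test only through 0 h, so the count over the 8 is a description. The members' median log2 difference was -3.94, against 0.16 over all genes tested. It lies between Cryge at -3.86 and Crygf at -4.01, 2 of those that entered only through 0 h, so it too is a description. Crygb, Crygc, Crygd and Crygn were also in a list of lens genes that the study drew from these libraries, so their direction is not independent evidence.

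The same question was asked of LCs that lack Itgb8. Crygb was at 301, 122 and 203 FPKM at 0 h PCS in β8ITGcKO and at 10.2, 1.24 and 0.870 FPKM at 24 h PCS. Crygc was at 409, 259 and 360 FPKM and then at 18.7, 7.64 and 9.14 FPKM. Crygd was at 180, 63.8 and 108 FPKM and then at 6.09, 0.412 and 0.866 FPKM. In each of the 3 genes, replicate 2 was the lowest library at 0 h and replicate 1 the highest at 24 h, and the groups remained far apart. The log2 differences were -5.77 ± 0.65 for Crygb, -4.82 ± 0.31 for Crygc and -5.35 ± 0.61 for Crygd (SE; limma adjusted p = 0.00036, 3.08e-05 and 0.000359), with means 50.8, 29.0 and 47.7 times lower at 24 h.

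Replicate 1 of β8ITGcKO 24 h also held nearly all that was left of the low members. Cryge was at 12.6, 32.7 and 20.4 FPKM at 0 h PCS and then at 4.21, 0 and 0.155 FPKM at 24 h PCS. Crygf was at 7.96, 13.0 and 9.50 FPKM and then at 1.85, 0.085 and 0 FPKM, and Cryga was at 3.82, 4.40 and 3.46 FPKM and then at 1.08, 0 and 0 FPKM. All 6 chromosome 1 members were thus highest in the same 24 h library, in which the 10 lens fiber markers summed to 409 FPKM, against 394 FPKM in each of the other 2 libraries, and the photoreceptor markers to 1034 FPKM, against 874 and 1026 FPKM. The part of other cell types in that library's values was not tested. The log2 differences were -3.56 ± 0.62 for Cryge, -2.91 ± 0.39 for Crygf and -1.93 ± 0.28 for Cryga (SE; limma adjusted p = 0.00266, 0.000763 and 0.00119).

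Crygs in β8ITGcKO was tight within both times. It was at 4002, 3947 and 4387 FPKM at 0 h PCS and then at 587, 571 and 539 FPKM at 24 h PCS. Its mean was 7.27 times lower, with a log2 difference of -2.86 ± 0.15 (SE, limma adjusted p = 1.28e-05). Crygn was at 116, 270 and 211 FPKM and then at 20.9, 39.0 and 43.2 FPKM, again with no overlap. It fell by 2.48 (SE 0.35, limma adjusted p = 0.00106), and its mean was 5.79 times lower.

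In β8ITGcKO, 8 of 8 members were called lower at 24 h PCS and all were lower in every library, where 15.1% of 15237 genes were called, 3.77% were called lower and 14% were lower in every library. Cryga entered the test only through 0 h. With Cryga counted in, the members' median log2 difference was -3.23, against 0.23 over all genes tested, again a description. The plot of time changes places both genotypes side by side.

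**Figure D2:**
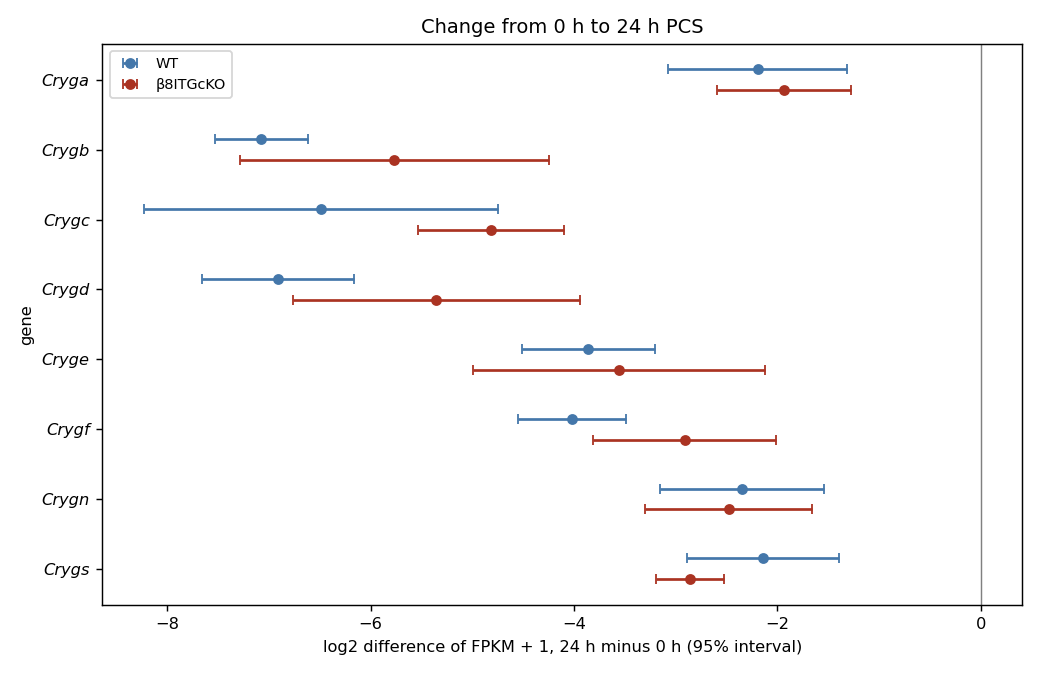
Change of each gamma crystallin gene from 0 h to 24 h PCS as the log2 difference of FPKM + 1 (horizontal axis), with a point and a 95% interval from limma for WT and for β8ITGcKO. All 16 intervals lie below 0, with Crygb, Crygc and Crygd at -4.82 to -7.07 and Crygn and Crygs at -2.14 to -2.86.

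Between the genotypes at 24 h PCS, 6 of the 8 members passed the filter, and 0 were called, where 3.66% of 15366 genes were called. None of the 6 had an unadjusted p under 0.05 (limma). Crygc was at 0.108 to 10.4 FPKM in WT and 7.64 to 18.7 FPKM in β8ITGcKO, a log2 difference of 1.42 with a 95% interval from -0.47 to 3.30 (limma adjusted p = 0.379). Crygs was at 513 to 1054 FPKM in WT and at 539 to 587 FPKM in β8ITGcKO, a difference of -0.43 with an interval from -1.07 to 0.21 (adjusted p = 0.44, limma). Crygb at 0.58, Crygd at 0.87, Cryge at 0.66 and Crygn at 0.58 had adjusted p of 0.449 to 0.662. Photoreceptor markers were called higher in β8ITGcKO in this comparison for 10 of 10 genes, and their part in the values of the members was not tested. The groups overlapped for each of the 6 genes. On log2(FPKM + 1) the upper limits were 2.07 for Crygb, 3.30 for Crygc, 2.22 for Crygd and 2.05 for Cryge. At such low levels these limits do not bound the fold difference of FPKM, since the pseudocount shrinks it. The β8ITGcKO means were 2.80, 2.13, 4.96 and 8.40 times the WT means for Crygb, Crygc, Crygd and Cryge. Replicate 1 of β8ITGcKO 24 h was the highest library for all of them, at 10.2, 18.7, 6.09 and 4.21 FPKM. The others, at 1.24 and 0.870, 7.64 and 9.14, 0.412 and 0.866, and 0 and 0.155 FPKM, were under the highest WT library. The highest WT values were 2.21, 10.4, 1.04 and 0.519 FPKM. Cryga and Crygf, under the filter, were at 0 to 1.02 against 0 to 1.08 FPKM and at 0 to 0.145 against 0 to 1.85 FPKM.

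At 0 h PCS, 8 members were tested between the genotypes and 0 were called, where 2.52% of 14708 genes were called. Crygb was at 310 to 345 FPKM in WT and 122 to 301 FPKM in β8ITGcKO, lower in every β8ITGcKO library, with a log2 difference of -0.73 (95% interval -1.39 to -0.06) and a limma adjusted p of 0.174. In 12.8% of all genes tested every β8ITGcKO library was lower, so 1 such gene among 8 is near the background. Crygs was higher in every β8ITGcKO library, 3947 to 4387 against 2777 to 3910 FPKM, by 0.29 (interval -0.19 to 0.78, limma adjusted p = 0.429), as were 18% of all genes. Crygf at -0.63 and Crygn at 0.71 had unadjusted p of 0.0315 and 0.0397, as Crygb had 0.0358, but limma adjusted p of 0.163 and 0.183.

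The remaining members overlapped between the genotypes at 0 h PCS. Their log2 differences were -0.68 for Crygd, -0.26 for Crygc, -0.25 for Cryga and 0.36 for Cryge, with limma adjusted p of 0.338 to 0.63. Within β8ITGcKO 0 h the libraries did not rank alike for all members. Replicate 2, the lowest for Crygb, Crygc and Crygd, was the highest for Cryga, Cryge, Crygf and Crygn. Crygd and Cryge share 15.8% of the windows of Crygd, as given above, while Crygn shares none with another gene. The part of shared windows in this order was not tested.

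Whether the fall itself differed between the genotypes was asked by the interaction term of a single limma fit to all 12 libraries. None of the 8 members had an adjusted p of at most 0.05, against 9.39% of the 15262 genes tested, and 1 member, Crygf, had an unadjusted p under 0.05. Crygf differed by 1.10 on the log2 scale (95% interval 0.01 to 2.19, limma adjusted p = 0.2), positive values meaning a smaller fall in β8ITGcKO. The estimates were 1.31 for Crygb, 1.67 for Crygc and 1.55 for Crygd, with adjusted p of 0.251 to 0.338, and -0.72 for Crygs (interval -1.49 to 0.04, adjusted p = 0.235). Each estimate is the genotype difference at 24 h less that at 0 h. At 0 h these differences were -0.73 for Crygb, -0.26 for Crygc, -0.68 for Crygd and -0.63 for Crygf. At 24 h they were 0.58, 1.42 and 0.87 for Crygb, Crygc and Crygd, with Crygf under the filter. On log2(FPKM + 1) the fall of a gene that ends near 0 is limited by its 0 h level. The part of this limit in the estimates was not tested. For Cryga at 0.26, Cryge at 0.30 and Crygn at -0.13 the intervals reached more than 0.88 to each side of 0.

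**Figure D3:**
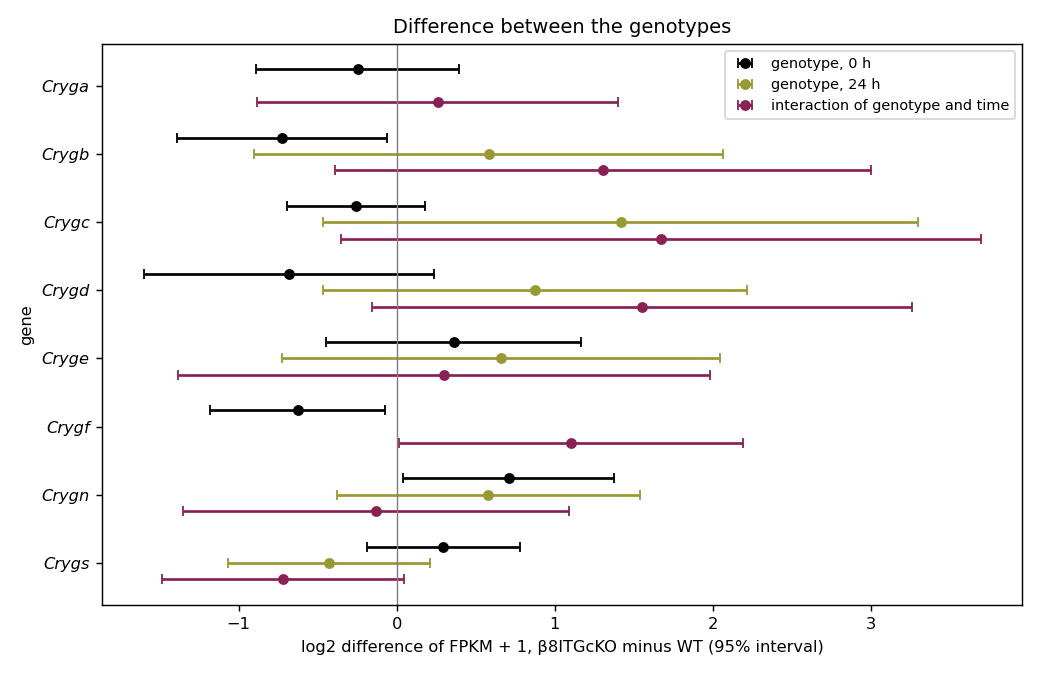
Differences between β8ITGcKO and WT for each gamma crystallin gene at 0 h PCS, at 24 h PCS and for their interaction with time, as log2 differences of FPKM + 1 with 95% intervals from limma. The intervals exclude 0 for Crygb, Crygf and Crygn at 0 h and narrowly for Crygf in the interaction, none of them with an adjusted p of at most 0.05, and Cryga and Crygf have no value at 24 h because they were under the filter.

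The makeup of the gamma crystallin RNA was described per library, with no test, since the members were chosen with earlier results known. In WT the 8 members summed to 4443 ± 592 FPKM at 0 h PCS and 824.2 ± 288 FPKM at 24 h PCS, and in β8ITGcKO to 5015 ± 295 and 621 ± 28.8 FPKM (SD, n = 3). Crygs made up 75.9% ± 4.13 of that sum in WT 0 h and 96.3% ± 1.04 in WT 24 h, and 82.0% ± 2.2 and 91.1% ± 0.971 in β8ITGcKO. The 6 chromosome 1 members made up 21.5% ± 3.88 in WT 0 h and 0.872% ± 0.495 in WT 24 h, and 13.98% ± 3.87 and 3.28% ± 2.77 in β8ITGcKO. After a day the sum was therefore nearly all Crygs in both genotypes.

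Set against Crygs in the same library, which no rescaling of a library can move, the chromosome 1 members stood at 233, 263 and 364 FPKM per 1000 FPKM of Crygs in WT 0 h and at 12.9, 3.19 and 11.1 in WT 24 h. In β8ITGcKO they stood at 228, 125 and 160 at 0 h and at 71.7, 16.4 and 20.5 at 24 h. All β8ITGcKO libraries thus lay below all WT libraries at 0 h PCS, by the small gap between 228 and 233, and above them at 24 h PCS. As plain FPKM, the summed chromosome 1 members overlapped between the genotypes at both times. Crygn stood at 28.8 to 39.8 per 1000 FPKM of Crygs in WT 0 h, 18.0 to 38.1 in WT 24 h, 28.9 to 68.4 in β8ITGcKO 0 h and 35.6 to 80.2 in β8ITGcKO 24 h, with overlapping groups at each time. The ratio of Crygn to Crygs did not move in 1 direction with time, unlike that of the chromosome 1 members.

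**Figure D4:**
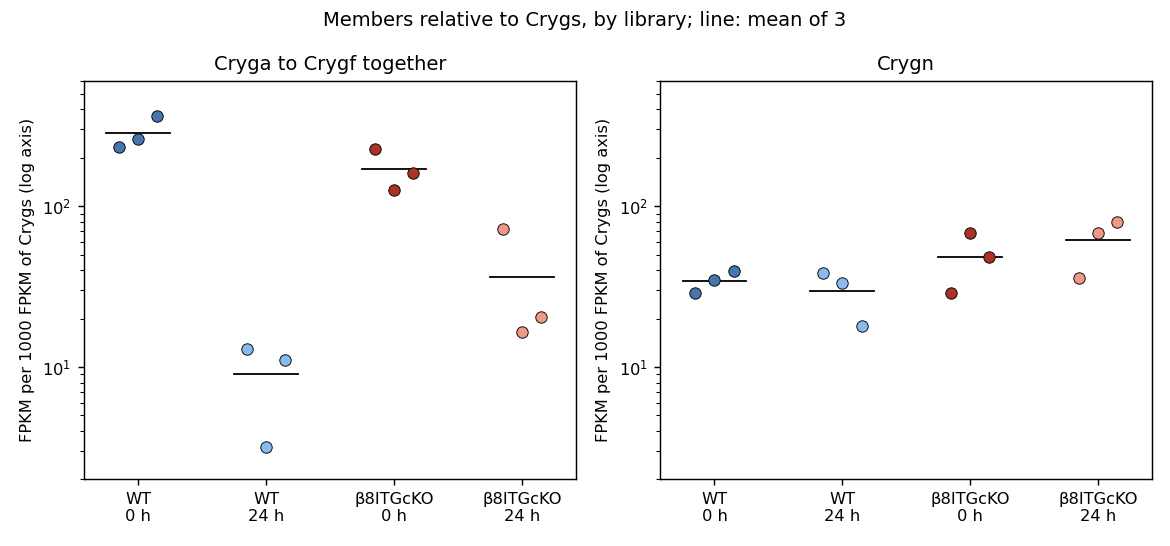
FPKM of the 6 chromosome 1 members together (left) and of Crygn (right) per 1000 FPKM of Crygs in the same library, on a log axis, with a point per library and a line at the mean of 3. The left panel drops from 125 to 364 at 0 h to 3.19 to 71.7 at 24 h PCS, while the right panel stays between 18.0 and 80.2.

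The alpha and beta crystallins, chaperone-like and oligomeric structural proteins of the same cells, were compared in the same way. In WT, 5 of 8 were called lower, namely Cryba4 at -3.01, Crybb1 at -2.45, Cryba1 at -2.37, Cryba2 at -1.84 and Cryab at -1.35 (log2, limma adjusted p = 0.00465 to 0.0251). The list's median was -1.63 with Cryaa counted in. Cryaa, the alpha A chaperone, was listed at 0 in WT 0 h replicate 2 beside 28167 and 24296 FPKM, so its difference of 4.03 with an SE of 3.52 cannot be read. In β8ITGcKO, 8 of 8 were called lower with a median of -2.31, led by Cryba4 at -3.57 and Cryba1 at -2.96. Summed gamma crystallins were 10.1% ± 0.946 of the summed beta crystallin FPKM in WT 0 h and 5.26% ± 0.946 in WT 24 h, and 10.8% ± 0.644 and 6.16% ± 0.643 in β8ITGcKO, lower at 24 h in every library.

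Lens fiber genes were counted next. Of 9 tested of 10, 8 were called lower in WT, led by Mip, the fiber membrane channel aquaporin 0, at -3.13 and Lim2, a fiber membrane protein, at -3.01, with a median of -1.59. In β8ITGcKO 9 of 9 tested were called lower, led by Mip at -3.25 and Bfsp1, a beaded filament protein, at -3.11, with a median of -2.08. Their summed level was 1386 to 1668 FPKM in WT 0 h and 310 to 573 FPKM in WT 24 h, and 2000 to 2131 and 394 to 409 FPKM in β8ITGcKO. The fall of these fiber markers stands beside the fall of every member, and its part in that fall was not tested.

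Known regulators of gamma crystallin genes came next. In WT, 3 of 11 were called lower, Hsf4, the lens heat shock factor, at -1.53, Tdrd7, a component of RNA granules, at -1.28 and Foxe3, a forkhead factor of the lens epithelium, at -1.05 (limma adjusted p = 0.00196, 0.00197 and 0.0091). In β8ITGcKO, 8 of 11 were called lower, led by Hsf4 at -2.21 and Foxe3 at -2.15. The list's median was -0.89 in WT and -1.33 in β8ITGcKO. Between the genotypes 0 of 11 were called at either time, although at 0 h PCS Maf (0.64, limma adjusted p = 0.0154) and Foxe3 (0.89, limma adjusted p = 0.0278) passed the adjusted p alone, higher in β8ITGcKO by less than 2-fold. Of all genes tested at 0 h, 6.94% passed the adjusted p alone.

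By the interaction test, 2 of the 11 regulators, Maf and Sox1, passed an adjusted p of 0.05, against 9.39% of all genes. Maf, a bZIP factor needed for crystallin expression in fiber cells, was at 40.6 to 46.2 FPKM in WT 0 h and 22.3 to 30.2 in WT 24 h, and at 65.0 to 72.3 and 20.7 to 24.6 FPKM in β8ITGcKO. Its log2 difference over time was -0.76 in WT (limma adjusted p = 0.0096), under the 2-fold limit of a call, and -1.57 in β8ITGcKO (limma adjusted p = 2.93e-05), an interaction of -0.81 (SE 0.18, limma adjusted p = 0.0167). Sox1, an HMG box factor that gamma crystallin genes require, was at 14.6 to 17.7 and 10.3 to 15.1 FPKM in WT and at 19.1 to 21.1 and 8.04 to 8.18 FPKM in β8ITGcKO. Its log2 difference over time did not pass in WT (-0.36, limma adjusted p = 0.152) and was -1.20 in β8ITGcKO (limma adjusted p = 5.09e-05), an interaction of -0.84 (SE 0.19, limma adjusted p = 0.0202). For both factors the β8ITGcKO libraries lay above the WT libraries at 0 h, and for Sox1 they lay below them at 24 h. Of all genes tested, 18% lay above in every library at 0 h and 9% lay below at 24 h.

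Among the relatives of the family that are not lens structural proteins, Crybg1, listed under its older symbol Aim1, rose at 24 h PCS by 1.18 in WT and 1.20 in β8ITGcKO (log2, limma adjusted p = 0.0154 and 0.000381). Crybg3 fell by 0.93 in β8ITGcKO (adjusted p = 0.00284, limma) and was at -0.60 in WT (adjusted p = 0.055). Crybg2, listed as Aim1l, was under the filter.

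**Figure D5:**
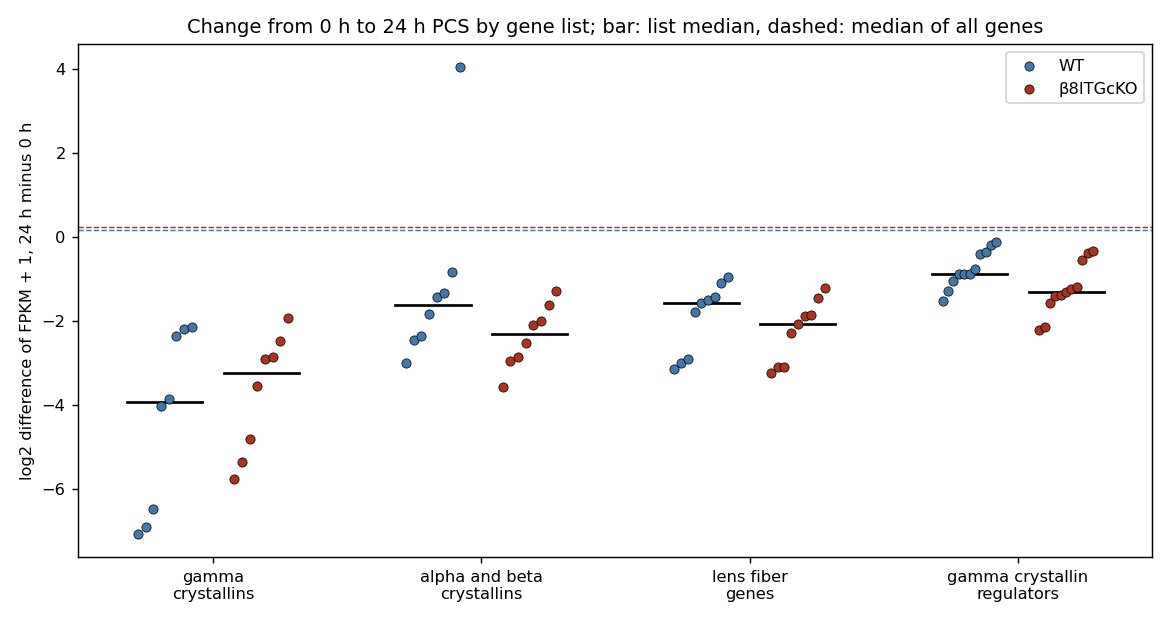
Log2 difference of FPKM + 1 between 24 h and 0 h PCS for the genes tested of 4 lists, with a point per gene, a bar at the list median and a dashed line at the median of all genes tested, for WT and β8ITGcKO. Gamma crystallins have medians of -3.94 and -3.23, against -1.63 and -2.31 for alpha and beta crystallins. The gamma medians are descriptions, since Cryga, Crygd, Cryge and Crygf in WT and Cryga in β8ITGcKO entered only through 0 h. The single high WT point at 4.03 is Cryaa, which a listed 0 decides and which the median of -1.63 includes.

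Across the 12 libraries, the genes whose log2(FPKM + 1) followed that of Crygs most closely, among 4133 other genes whose mean reached 10 FPKM, were Cryba1 (Pearson r = 0.996), Cryba2 (0.995), Palm2 (0.992), Sox2ot (0.991) and Tmem40 (0.99). For Crygn they were Nt5dc2 (0.986), Aldh1a7 (0.983), Scd2 (0.983), Pmp22 (0.978) and Atraid (0.976). For the mean of the chromosome 1 members they were Ctnna2 (0.977), Nfat5, Bnip3l, Palm2 and Prrt4 (0.97 to 0.966). Among the members themselves, each chromosome 1 gene correlated with their mean at 0.958 to 0.995, which includes the gene itself, while Crygs did so at 0.942 and Crygn at 0.863. All these values are dominated by the difference between the times, which the 12 points share, and describe these libraries only.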

How the data were processed

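Stranded total RNA libraries from low input were sequenced as read pairs. The tools that the submitters' processing notes name are FastQC, cutadapt 1.12, TopHat2 2.1.0 and Cuffdiff 2.2.1, with mm10 and GRCm38.p5. The authors deposited FPKM per library and gene, with a pair of conditions in each of 4 tables. The FPKM of a library were identical wherever it occurred. Columns of group values, fold changes, p and q values hold the authors' own comparisons and were not used. Whether counting used strand or how reads that match several genes were shared is not given in the sources used here.

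FPKM were fitted as log2(FPKM + 1) with limma 3.58.1 (trend, eBayes; R 4.3.3), for genes whose mean over the libraries fitted reached 0.5 FPKM, with Benjamini-Hochberg adjustment over all of them. Each pair of conditions was fitted alone, and the interaction over 12 libraries. The smallest p that an exact permutation of 3 against 3 libraries allows is 0.1, so no such test is given. Members, gene lists and tests were chosen with earlier results of these data known. The genes named are all members, the 2 largest rises and falls called in each list (all if 5 or fewer were called), and for likeness the 5 highest correlations. Maf, Sox1 and Cryaa were named after their values were seen. Marker lists covered lens epithelium, lens fiber, photoreceptors, pigment cells, corneal epithelium, corneal stroma and leukocytes. The fit was tested on simulated data. Replicates are separate pools of capsules. Transcripts (GENCODE vM21, transcript 201 of each gene) and promoters (RefSeq, GRCm38.p6) were aligned globally with Biopython 1.88 (match 1, mismatch -1, gap -2 and -0.5). Plots used matplotlib 3.10.9 in Python 3.11.15 with pandas 2.3.3 and numpy 2.4.6. Alternatives covered the pseudocount (0.1), the filter (none, 2 FPKM), rescaling to the same median, a replicate block, listed zeros as missing, 1 fit over 12 libraries, adjusted p alone and each library left out. The values of some single genes of the lists are not reported here.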

Additional observations from a re-analysis of the deposited data

Results flagged for a closer look

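Maf and Sox1, 2 of the 11 listed regulators of gamma crystallin genes, passed the interaction test of genotype and time over 12 libraries. So did 9.39% of all genes. Both genes were named after their values were seen. Neither was rechecked under the alternative settings, whose values for single genes cover the members only. The log2 interaction was -0.81 for Maf and -0.84 for Sox1 (limma adjusted p = 0.0167 and 0.0202). In WT alone, Sox1 did not pass the test over time (limma adjusted p = 0.152) and Maf was not called.

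Relative to Crygs, or to the sum that Crygs dominates, the chromosome 1 members differed between the genotypes in opposite directions at the 2 times, with no overlap at either. Their summed FPKM overlapped at both times, and as a percentage of beta crystallins they overlapped at 0 h. The chromosome 1 members per 1000 FPKM of Crygs were lower in β8ITGcKO than in WT by a mean of -115 at 0 h PCS and higher by 27.2 at 24 h PCS. As a share of the summed gamma crystallins the same members differed by -7.56 percentage points at 0 h and by 2.41 at 24 h, and Crygs by 6.15 and -5.15 percentage points. These are 3 forms of 1 pattern, and the difference was not tested. The pattern was flagged, among other composition values, because the groups did not overlap. The lack of overlap is therefore no support for it. Without WT 0 h replicate 3 the 0 h values were -76.4 per 1000 FPKM of Crygs, and 3.85 percentage points for Crygs. Leaving a library out cannot create overlap between groups that had none. Without β8ITGcKO 24 h replicate 1, at 71.7 per 1000 FPKM of Crygs, the other 2 libraries of that group were at 16.4 and 20.5. The highest WT 24 h library was at 12.9. The difference of means then shrank from 27.2 to 9.39 and that of the shares from 2.41 to 0.816 percentage points.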

How the results depend on the processing

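Of 531 alternative values of single members, 523 kept their direction and their side of the threshold, 7 changed sign and 1 passed the threshold. The 8 calls in WT and the 8 in β8ITGcKO over time held under every alternative, and 0 members were called between the genotypes at 24 h or in the interaction. At 0 h between the genotypes the count went from 0 to 1 without β8ITGcKO 0 h replicate 1, where Crygn was called (adjusted p = 0.0384), and was 0 to 1 over the left-out libraries.

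Signs changed only where a library was left out, for values that passed no threshold. Crygb between the genotypes at 24 h was -0.23 without β8ITGcKO 24 h replicate 1, with a highest value of 1.06 over the left-out libraries. The interaction ranged from -0.47 to 0.30 for Crygn, from -0.46 to 0.73 for Cryge and from -0.093 to 0.61 for Cryga. β8ITGcKO 24 h replicate 1 changed the sign of all 3.

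Rescaling to the same median moved the summed gamma crystallins to 5469 FPKM in β8ITGcKO 0 h and 551 FPKM in β8ITGcKO 24 h. It moved the median of all genes over time from 0.16 to -0.05 in WT and from 0.23 to -0.0012 in β8ITGcKO, and the calls from 1566 higher and 593 lower to 982 and 961 in WT, and from 1719 and 575 to 1172 and 877 in β8ITGcKO. With no filter, Cryga and Crygf between the genotypes at 24 h were at 0.01 and 0.48 (limma adjusted p = 0.993 and 0.629).

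Libraries with the same replicate number did not deviate together (correlations of -0.22 to 0.08), so the number was not taken as a pairing. With the replicate block the members called were 8, 8, 0, 0 and 0 as without it, and the calls over all genes between the genotypes at 0 h went from 371 to 224. The unknown depth limits what values near 0 FPKM can show.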
